A study of Mus musculus with 6 samples.

Results

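Mitosis genes were followed in mpkCCD clone 11 cells after exposure to the vasopressin analog dDAVP. The mpkCCD line derives from mouse kidney, where the collecting duct takes back water under the control of vasopressin. The list held 34 genes of spindle assembly, chromosome attachment and mitotic exit, chosen by name. A gene was represented by 1 probe set, the brightest by its mean over the 6 arrays among those that name no other gene. This gave 33 members, with 70 probe sets in all, of 12364 genes on the array table, and Ccnb1 was not analysed here. The tested cells received 0.1 nM dDAVP (desmopressin), an agonist of the V2 receptor, for 5 days, and the reference cells received vehicle alone over the same time. Both groups were of the same clone, so the line stands for 1 clone, and both were grown on membrane supports until the layer was polarized and electrically tight before exposure. Total RNA was read on Affymetrix mouse expression arrays, 3 for dDAVP and 3 for vehicle, called biological replicates in the labels. The labels do not say whether they came from separate passages. The p-values thus cover only the spread between these samples. The comparison asks whether the message of the cell division machinery differs after long exposure to dDAVP.

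A cell that divides makes most of the proteins of mitosis only late in the cycle, because their genes share a timed programme of transcription in which the MuvB core, B-Myb and Foxm1 act at promoters that carry a CHR element, often with CCAAT boxes bound by NF-Y. Cells that have left the cycle keep these genes silent through the DREAM complex, which binds the same CHR element. In a resting kidney epithelium mitosis is rare, whereas cultured lines such as mpkCCD still hold cycling cells after a tight layer has formed. In RNA from a whole layer, fewer dividing cells and less mitotic RNA per cell cannot be told apart.

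The promoters of the members whose signal differed most are shown first, because CHR letters were more frequent among the members' promoters than among all promoters. They are the 4 members with the smallest limma p that have an entry in the RefSeq promoter table (build GRCm38.p6). Each run goes from 150 bases before the gene's start to 20 bases after it, in the direction of the gene. Capitals mark the CHR letters TTTGAA or TTCGAA and the CCAAT box, on either strand, so TTCAAA and ATTGG are the same letters read on the opposite strand. No matches overlap in these runs.
Kif11, chr19:37376232-37376401, plus strand: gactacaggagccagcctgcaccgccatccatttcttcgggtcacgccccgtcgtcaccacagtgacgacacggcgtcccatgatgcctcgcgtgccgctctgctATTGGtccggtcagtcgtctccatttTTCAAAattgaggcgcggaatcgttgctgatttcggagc
Mki67, chr7:135716360-135716529, minus strand: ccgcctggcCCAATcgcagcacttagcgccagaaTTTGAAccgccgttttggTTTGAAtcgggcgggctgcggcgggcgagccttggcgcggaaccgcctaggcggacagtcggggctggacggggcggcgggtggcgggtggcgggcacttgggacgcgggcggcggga
Bub1b, chr2:118598061-118598230, plus strand: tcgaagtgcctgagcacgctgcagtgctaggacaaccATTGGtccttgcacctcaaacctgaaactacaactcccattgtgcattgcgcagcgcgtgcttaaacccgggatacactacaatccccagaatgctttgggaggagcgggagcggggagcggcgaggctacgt
Cenpf, chr1:189688067-189688236, minus strand: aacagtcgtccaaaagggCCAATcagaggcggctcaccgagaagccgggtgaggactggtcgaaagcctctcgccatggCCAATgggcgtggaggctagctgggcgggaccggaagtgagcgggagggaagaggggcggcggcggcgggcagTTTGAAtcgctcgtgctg

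In Kif11 the CHR letters lie at positions -19 to -14 from the start and a CCAAT box at -45 to -41, both on the opposite strand. Mki67 holds TTTGAA at -116 to -111 and again at -98 to -93, with a CCAAT box at -141 to -137. The Bub1b run shows a CCAAT box at -113 to -109, and its CHR letters lie beyond the run, TTCGAA at -188 to -183 and TTTGAA at 41 to 46. Cenpf holds CCAAT boxes at -132 to -128 and -71 to -67 and TTTGAA at 3 to 8. In windows from 250 bases before to 50 after the start, 22 of the 29 members held at least 1 of the CHR sequences. That is 75.9% of the members in the table, against 19.2% of all 32851 promoter windows. A listed gene with several windows counted if any of them held the letters, whereas the share over all counts each window. For TTTGAA alone the shares were 72.4% of members and 17.9% of all windows, and for TTCGAA 10.3% and 1.56%. A CCAAT box was found in 75.9% of members and 37.4% of all windows, and CHR letters together with a CCAAT box in 69.0% of members and 7.52% of all windows. Among the other cell cycle lists, CHR letters were held by 67.9% of other mitosis genes, 41.2% of transcriptional regulators and 25% of G1 cyclins and kinases. They were held by 22% of DNA replication genes, 15.8% of subunits of the anaphase-promoting complex and cohesin, and 7.69% of cell cycle brakes. The CCAAT box was about as frequent among brakes, at 76.9%, as among the members. It was held by 66.1% of other mitosis genes, 62.5% of G1 cyclins and kinases and 61% of DNA replication genes. The shares were 52.9% of transcriptional regulators and 47.4% of the anaphase-promoting complex and cohesin list. CHR letters together with a CCAAT box were held by 50% of other mitosis genes, 35.3% of transcriptional regulators and 25% of G1 cyclins and kinases. For DNA replication genes that share was 12.2%, for the anaphase-promoting complex and cohesin list 5.26%, and for brakes 0%. Such a match describes the letters and is not evidence of binding.

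Nearly all mitosis genes had a lower signal in dDAVP cells than in vehicle cells, and the differences were small. A negative log2 change was seen in 32 of the 33 members, against 44.6% of all genes. The median over the members was -0.11, against 0.0039 over all 28225 probe sets, and the members' signals in dDAVP cells lay between 83.7% (Kif11) and 100.5% (Pttg1) of those in vehicle cells. All 3 dDAVP arrays lay below all 3 vehicle arrays for 19 members, against 5.13% of all genes, and no member (0) lay above in all. No member passed limma's test at a Benjamini-Hochberg adjusted p of 0.05 over all probe sets (0 of 33), where 0.291% of all genes passed in either direction. An unadjusted p below 0.05 was reached by 7 members, all with negative changes, against 2.3% of all genes with a negative change, and by 0 members with a positive change, against 5.51% of all genes. The count of 7 was 3 without vehicle replicate 1 and 4 without dDAVP replicate 1 or dDAVP replicate 2. The members' probe sets were at or above 8.03 log2 units, and among the 5316 genes at or above that level 45.1% were negative, 6.28% lay below vehicle in all arrays and 1.81% had an unadjusted p below 0.05 with a negative change. Aqp2, the water channel gene induced by vasopressin, was at 10.85 ± 0.072 log2 units in dDAVP cells and 6.70 ± 0.042 in vehicle cells (SD, n = 3 each, limma adjusted p = 1.66e-07), so the arrays carry the treatment their labels name.

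**Figure D1:**
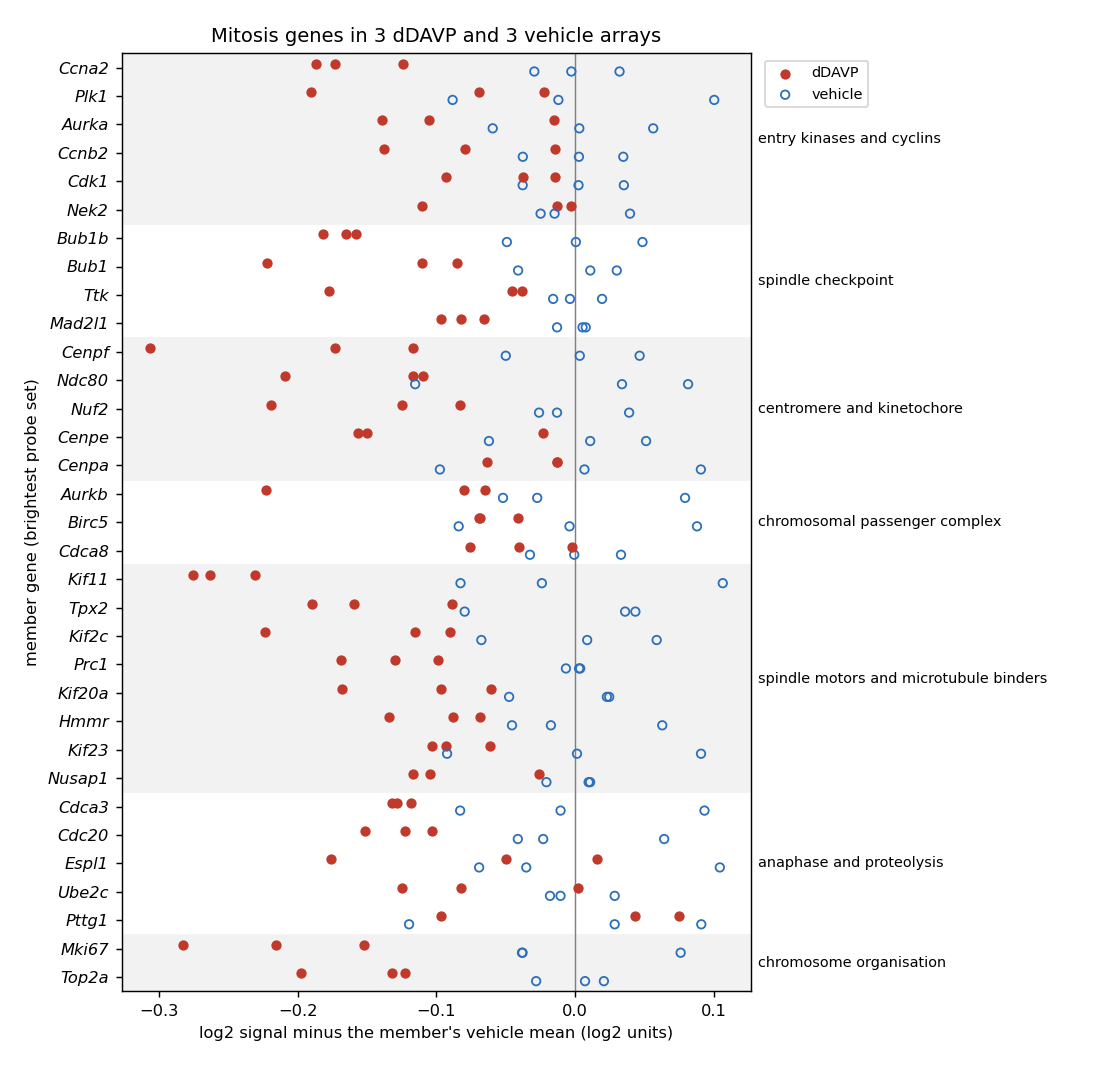
Log2 signal of each of the 33 mitosis genes in every array, with the member's vehicle mean set to 0 (x axis, log2 units), by role (y axis). Filled points are the 3 dDAVP arrays and open points the 3 vehicle arrays. For 19 members every filled point lies left of every open point.

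The mean over all members had the same direction in every array. Averaged over the 33 members, the dDAVP arrays stood at 9.69, 9.74 and 9.71 log2 units and the vehicle arrays at 9.83, 9.83 and 9.81. The groups did not overlap, and the gap between the group means, -0.11, exceeded the SD within either group (0.025 for dDAVP and 0.013 for vehicle). The same held for the means of other mitosis genes (-0.098), of anaphase-promoting complex and cohesin genes (-0.049) and of DNA replication genes (-0.025). The DNA replication groups nearly met, with dDAVP replicate 1 at 9.6152 and vehicle replicate 2 at 9.6157 log2 units. The mean of all genes was also apart, with dDAVP higher by 0.017. Means of transcriptional regulators, brakes and G1 cyclins and kinases overlapped. The highest of the 6 arrays was a vehicle array for all 33 members, and the lowest was a dDAVP array for 30. The exceptions were Pttg1, Cenpa and Birc5. The like shares over all genes were not counted, so these counts only describe the members. The hybridisation controls, foreign transcripts spiked in just ahead of hybridisation, were on average lower in dDAVP arrays, by a difference of -0.15 log2 units, with group ranges that met. They were at 10.54, 10.42 and 10.42 log2 units in dDAVP arrays and 10.69, 10.54 and 10.59 in vehicle arrays. With every array scaled to these controls the median change of the members was 0.039 and that of all probe sets 0.15, and 6 of the 33 members kept a negative change. Relative to the median of all probe sets, 32 members were lower under either scaling. That count could not change, because such a scaling shifts every probe set of an array by the same amount. The part of the controls in the result was not tested. The poly-A controls, which are spiked in ahead of the labelling step, were at 8.12 ± 0.019 in dDAVP arrays and 8.10 ± 0.10 in vehicle arrays (SD, n = 3 each).

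The kinases and cyclins that drive entry into mitosis had a median change of -0.08, with 6 of 6 measured members negative. Ccna2, cyclin A2, which activates the kinases of S phase and early mitosis, measured 11.37, 11.35 and 11.42 log2 units in dDAVP cells, against 11.57, 11.54 and 11.51 in vehicle cells. All dDAVP values lay below all vehicle values. The log2 change was -0.16 ± 0.056 (SE), or 89.4% of the vehicle signal, and did not pass (limma adjusted p = 0.503). A second Ccna2 probe set changed by a like amount, -0.15 ± 0.055, also without overlap. Cdk1, the kinase that starts mitosis, stood at -0.05 ± 0.058, with overlapping groups. Ccnb2, a B-type cyclin that partners it, was at -0.08 ± 0.061. Plk1, which promotes entry, spindle poles and exit, was at -0.09 ± 0.075, Aurka, the spindle pole kinase, at -0.09 ± 0.064, and Nek2, which separates the centrosomes, at -0.04 ± 0.060. In these last 5 genes the ranges of the groups overlapped.

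All 4 members of the spindle checkpoint, which holds cells in metaphase until every chromosome is attached, lay below vehicle in all dDAVP arrays. They are among the 19 such members counted above, against 5.13% of all genes. Bub1b (BubR1), which blocks the anaphase-promoting complex, measured 9.24, 9.27 and 9.26 log2 units in dDAVP cells, against 9.38, 9.48 and 9.43 in vehicle cells. The change was -0.17 ± 0.057 (limma adjusted p = 0.486). Mad2l1, which encodes the checkpoint protein Mad2, measured 10.51, 10.53 and 10.50 in dDAVP cells and 10.60, 10.58 and 10.60 in vehicle cells. Its groups were apart and tight, but the change was only -0.08 ± 0.054 (limma adjusted p = 0.794), and limma draws such small spreads towards that of all probe sets. Bub1, the kinase that recruits checkpoint proteins to kinetochores, was at -0.14 ± 0.063, and Ttk (Mps1), which starts the checkpoint signal, at -0.09 ± 0.063. Checkpoint genes outside the member list did not all share this. Bub3 (-0.02 ± 0.064), Mad1l1 (0.03 ± 0.095), Zw10 (-0.08 ± 0.069) and Zwilch (-0.01 ± 0.086) had overlapping groups. Kntc1 (-0.13 ± 0.067) lay below vehicle in all dDAVP arrays. These further genes were chosen after their values were seen.

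Among genes of the centromere and kinetochore, the structure that ties chromosomes to microtubules, the median change was -0.14 and 5 of 5 were negative. Cenpf, a large kinetochore protein that accumulates before mitosis, measured 9.96, 10.15 and 10.09 log2 units in dDAVP cells, against 10.31, 10.21 and 10.27 in vehicle cells. The groups did not overlap, and the change was -0.20 ± 0.070 (limma adjusted p = 0.507). The other Cenpf probe sets were at -0.19 ± 0.058 and -0.20 ± 0.068, each with all dDAVP arrays lower. Ndc80 (-0.15 ± 0.072) and Nuf2 (-0.14 ± 0.062), subunits of the complex that grips microtubules, had nearly equal changes, with overlap in Ndc80 and none in Nuf2. The kinetochore motor Cenpe was at -0.11 ± 0.066. Cenpa, the histone variant that marks centromeres, was at -0.03 ± 0.067, with overlapping groups.

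The chromosomal passenger complex, which corrects faulty attachments and later prepares cytokinesis, had the smallest median of the groups, -0.06. Birc5 (survivin) measured 10.26, 10.26 and 10.29 log2 units in dDAVP cells and 10.33, 10.25 and 10.42 in vehicle cells. Its groups overlapped, at -0.06 ± 0.064 (limma adjusted p = 0.895). The kinase of the complex, Aurkb, lay below vehicle in all dDAVP arrays (-0.12 ± 0.070), and the subunit Cdca8 (borealin) overlapped (-0.04 ± 0.057). The second Aurkb probe set also overlapped (-0.15 ± 0.097).

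The spindle motors and microtubule binders held the member with the largest change, and 7 of 8 lay below vehicle in all dDAVP arrays. These 7 are part of the 19 such members counted above, against 5.13% of all genes. Kif11 (Eg5), the motor that pushes the spindle poles apart, measured 9.25, 9.24 and 9.28 log2 units in dDAVP cells, against 9.62, 9.49 and 9.43 in vehicle cells. Every dDAVP value was lower, and the vehicle values were the more scattered. The change was -0.26 ± 0.067, with a 95% interval of -0.41 to -0.10 (limma adjusted p = 0.336). Both dimmer Kif11 probe sets were also lower in all dDAVP arrays, at -0.20 ± 0.073 and -0.30 ± 0.097. Prc1, which bundles microtubules in the spindle midzone, measured 9.49, 9.52 and 9.45 in dDAVP cells and 9.62, 9.61 and 9.62 in vehicle cells. The groups were apart, at -0.13 ± 0.055 (limma adjusted p = 0.608), and its dimmer probe set was at -0.26 ± 0.092. Kif23, a motor of the midzone, measured 10.00, 9.96 and 9.95 in dDAVP cells and 10.15, 10.06 and 9.97 in vehicle cells. It was the 1 member of this group whose arrays overlapped (-0.09 ± 0.066, limma adjusted p = 0.836). Tpx2, which activates Aurka and nucleates microtubules, was at -0.15 ± 0.064 and the microtubule-dismantling motor Kif2c at -0.14 ± 0.066. The cytokinesis motor Kif20a was at -0.11 ± 0.060, the spindle protein Hmmr at -0.10 ± 0.060 and the microtubule stabiliser Nusap1 at -0.08 ± 0.057.

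Genes of anaphase and regulated proteolysis included the 1 member with a positive value. Pttg1 encodes securin, which holds separase inactive until anaphase. It measured 11.57, 11.71 and 11.74 log2 units in dDAVP cells and 11.55, 11.76 and 11.69 in vehicle cells. The arrays of the 2 groups were interleaved, and the change of 0.01 ± 0.079 had a 95% interval of -0.18 to 0.19 (limma adjusted p = 0.991). Its sign turned with median centring, with poly-A scaling and without some single arrays. Cdc20, the activator of the anaphase-promoting complex, lay below vehicle in all dDAVP arrays (-0.13 ± 0.059), as did Cdca3 (-0.13 ± 0.065). Ube2c, the ubiquitin-conjugating enzyme of that complex (-0.07 ± 0.060), and Espl1, separase (-0.07 ± 0.077), overlapped. So did the second Cdc20 probe set (-0.05 ± 0.071) and both dimmer Cdca3 probe sets (-0.08 ± 0.062 and 0.10 ± 0.078).

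The genes of chromosome organisation gave the most negative group median, -0.18, from 2 members. Mki67 encodes the proliferation marker Ki-67, which coats mitotic chromosomes. It measured 11.25, 11.31 and 11.18 log2 units in dDAVP cells, against 11.54, 11.42 and 11.42 in vehicle cells. The groups did not overlap, and the change was -0.22 ± 0.066, or 86.0% of the vehicle signal (limma adjusted p = 0.421). Top2a, the topoisomerase that disentangles sister chromatids, measured 11.49, 11.50 and 11.42 in dDAVP cells, against 11.63, 11.64 and 11.59 in vehicle cells. Its groups were also apart, at -0.15 ± 0.057 (limma adjusted p = 0.549). The second Top2a probe set overlapped (-0.14 ± 0.091).

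**Figure D2:**
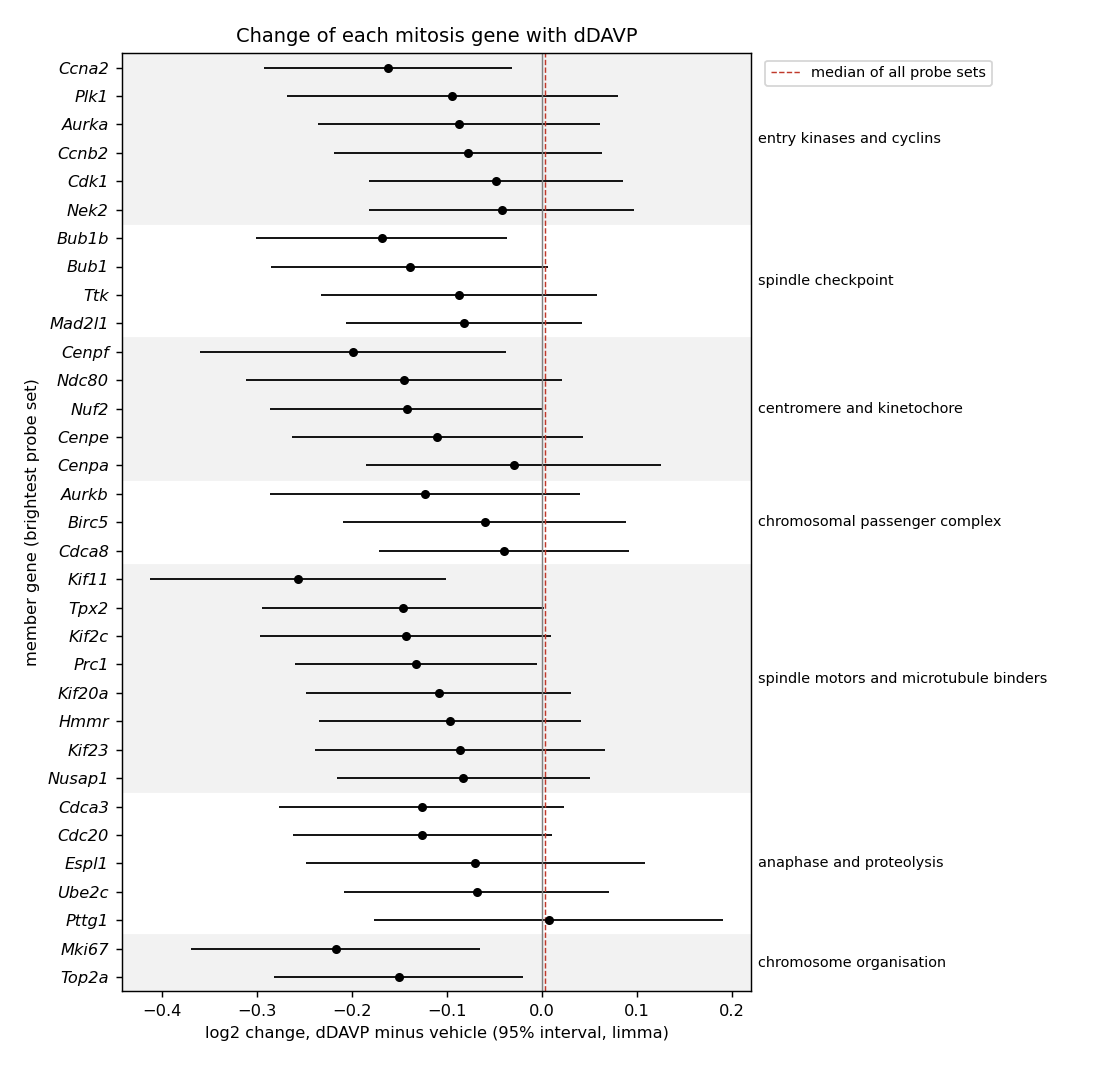
Log2 change of each mitosis gene, dDAVP minus vehicle (x axis), by role (y axis). Points are limma estimates from 3 arrays per group, bars 95% intervals, and the dashed line the median of all probe sets at 0.0039. The points run from -0.26 for Kif11 to 0.01 for Pttg1.

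Probe sets not used to represent a member read other stretches of the same transcripts on the same arrays. Of these 37, 32 had a negative change, with a median of -0.11, against 48.3% negative among all probe sets. An unadjusted p below 0.05 with a negative change was reached by 10, against 3.13% of all probe sets. In 13 of the 37 every dDAVP array lay below every vehicle array, against 5.35% of all probe sets. The 5 with a positive change belonged to Kif23, Cdca3, Tpx2, Pttg1 and Nek2, were at 2.77 to 6.40 log2 units, and had overlapping groups. Of the 21 members with at least 2 probe sets, 16 had a negative change in every one.

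Co-variation of the members within a group was read array by array. Each member's deviation from its group mean was correlated with that of every other member, over 6 arrays that leave 4 degrees of freedom. The median correlation was 0.04 over 528 pairs, against 0.01 over all pairs of genes, and 52.7% of the members' pairs were positive, against 50.7% of all pairs. The members' median rests on single arrays. It was 0.17 with dDAVP replicate 3 left out and -0.022 with dDAVP replicate 2 left out. Leaving out vehicle replicate 1, 2 or 3 gave 0.155, 0.166 or 0.132, while that of all genes stayed between 0.0042 and 0.018. By role, the median was 0.67 over 15 pairs for entry kinases and cyclins, 0.65 for the 1 pair of chromosome organisation and 0.46 over 3 pairs for the passenger complex. In 5 of the 6 entry genes vehicle replicate 2 was the highest vehicle array, and dDAVP replicate 1 the lowest dDAVP array. The spindle motors and microtubule binders had a median of 0.06 over 28 pairs and the spindle checkpoint genes -0.13 over 6 pairs. The kinetochore genes had -0.17 and the anaphase genes -0.25, each over 10 pairs. Within the dDAVP group the mean of all members deviated by -0.022, 0.026 and -0.0041 log2 units in replicates 1, 2 and 3, and within the vehicle group by 0.0066, 0.0086 and -0.015. All genes of an array share its labelling and its scaling, so such correlations are a description.

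**Figure D3:**
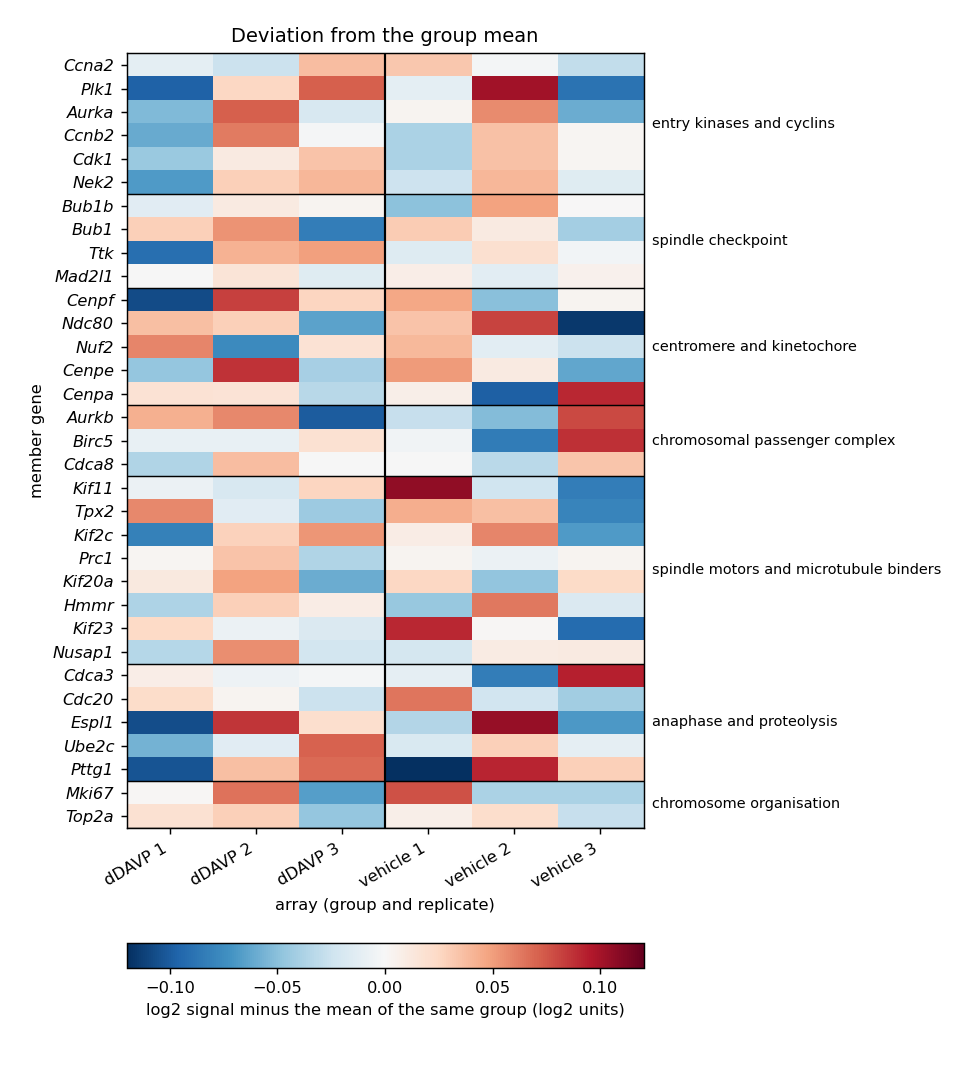
Deviation of each mitosis gene from the mean of its own group (colour, log2 units), with genes by role down the page and the 3 dDAVP and 3 vehicle arrays across it. Columns hold both signs throughout. Among the entry kinases and cyclins the column of dDAVP replicate 1 is negative in all 6 genes.

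Other mitosis genes, a separate list of 67 measured genes, had a median of -0.10, with 63 of 67 negative, against 44.6% of all genes. Of the 67, 21 lay below vehicle in every dDAVP array, against 5.13% of all genes. None passed the test (0). An unadjusted limma p below 0.05 was reached by 13, all negative, against 2.3% of all genes with a negative change. The kinetochore subunit Spc25, a partner of Ndc80 and Nuf2, stood at 9.84 ± 0.040 log2 units in dDAVP cells and 10.10 ± 0.043 in vehicle cells (SD, n = 3 each), a change of -0.25 ± 0.058 (SE, limma adjusted p = 0.267). The chromosome-binding motor Kif4 was at -0.19 ± 0.059 (limma adjusted p = 0.452). Subunits of the anaphase-promoting complex and of cohesin, the ring that holds sister chromatids together, had a median of -0.05 with 19 of 22 negative. Their lowest p belonged to Stag1 (-0.17 ± 0.078) and Pds5b (-0.14 ± 0.070), both of cohesin, and no gene passed (0 of 22). An unadjusted limma p below 0.05 was reached by 0 of the 22, against 7.8% of all genes in either direction.

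DNA replication genes, which act in S phase before mitosis, had a median of -0.03, with 28 of 48 negative. In limma 0 of the 48 passed and 0 had an unadjusted p below 0.05, where 7.8% of all genes reached that in either direction. Of the 48, 5 lay below vehicle in every dDAVP array and 2 above, against 5.13% and 10.1% of all genes. The 2 with the smallest p were Gins3 of the replicative helicase (-0.12 ± 0.059) and Pold1, the catalytic subunit of DNA polymerase delta (-0.11 ± 0.054). Whether the mitosis genes differed from this list was not tested, and only their medians are set side by side. The cyclins and kinases of G1 had a median of 0.06, with 6 of 10 positive. Ccnd1, cyclin D1, which senses growth signals, stood at 8.56 ± 0.17 in dDAVP cells and 8.26 ± 0.085 in vehicle cells (SD, n = 3 each), higher in every dDAVP array, without passing (0.30 ± 0.095 SE, limma adjusted p = 0.447). Cdk2, the kinase of S phase entry, was at 0.11 ± 0.063.

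Regulators of the mitotic programme and brakes on the cycle gave no passing gene either (0 of 23 and 0 of 15, with 2 and 3 at an unadjusted p below 0.05, against 7.8% of all genes in either direction). Of the 2 regulators 1 was positive. The 3 brakes, of 15, were all negative, against 2.3% of all genes with such a p and a negative change. Among regulators the median was -0.04, with 18 of 23 negative. Myc, a growth-promoting transcription factor, was higher in all dDAVP arrays (0.26 ± 0.069, limma adjusted p = 0.351), and Nfya, a subunit of the CCAAT-binding factor NF-Y, lower in all (-0.19 ± 0.075, limma adjusted p = 0.593). Foxm1, the activator of mitotic genes, was at 7.89 ± 0.073 log2 units in dDAVP cells and 8.05 ± 0.11 in vehicle cells (SD, n = 3 each) and was chosen after its values were seen. All its dDAVP values were lower, at -0.15 ± 0.076 (SE, limma adjusted p = 0.694). Groups overlapped for Mybl2, which encodes B-Myb (-0.04 ± 0.074). They also overlapped for the MuvB genes Lin9 (-0.01 ± 0.097), Lin37 (-0.03 ± 0.055), Lin52 (-0.09 ± 0.099) and Lin54 (-0.05 ± 0.098). These genes too were chosen after their values were seen. Among brakes the median was -0.02. Ccng2, a cyclin linked to cell cycle arrest, was at -0.20 ± 0.063 (limma adjusted p = 0.454) and the stress-induced Gadd45b at -0.18 ± 0.063 (limma adjusted p = 0.512), both lower in all dDAVP arrays.

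**Figure D4:**
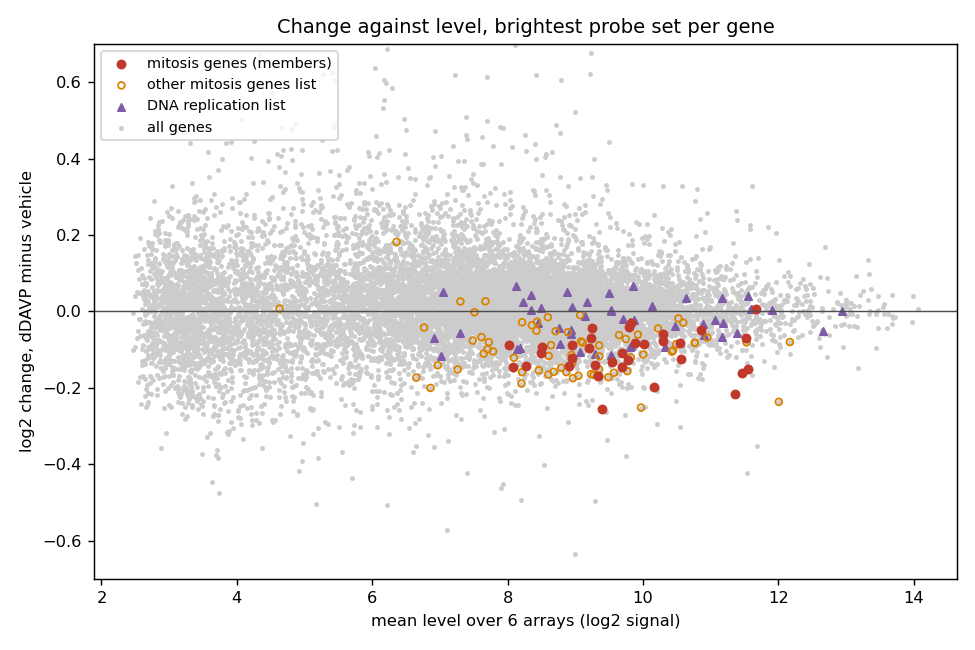
Log2 change, dDAVP minus vehicle (y axis), against mean log2 signal over 6 arrays (x axis), with 1 probe set per gene. The 33 mitosis genes and the 67 other mitosis genes lie mostly below 0 and the 48 DNA replication genes on both sides of it. Another 23 genes lie beyond 0.7 log2 units and are not drawn.

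**Figure D5:**
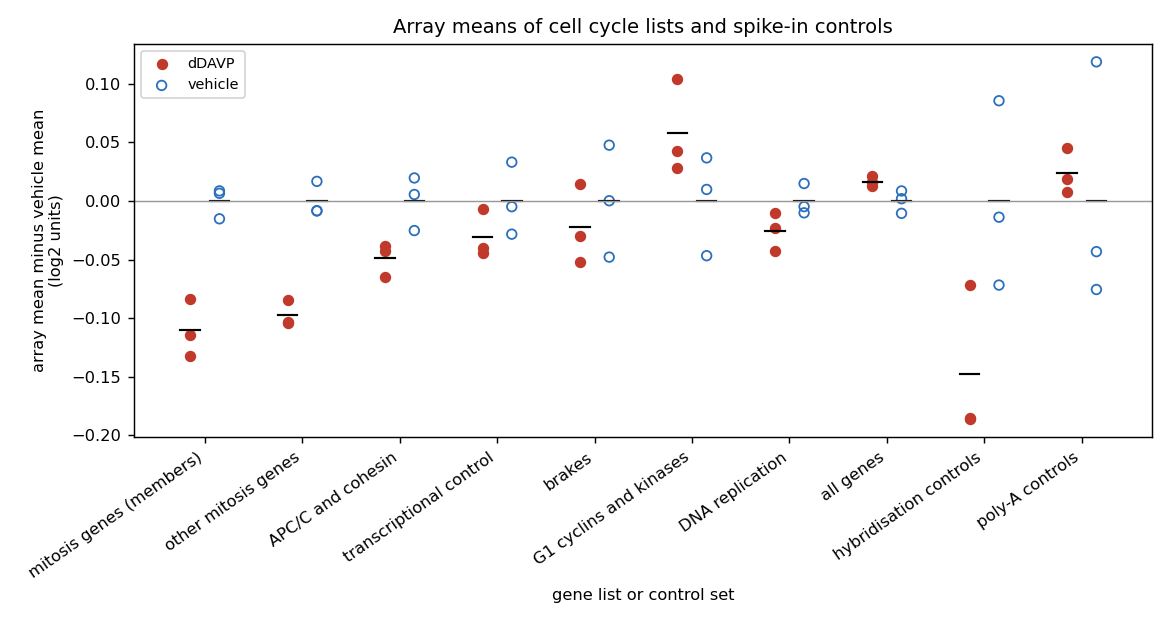
Mean log2 signal of each cell cycle list and control set in every array, minus its vehicle mean (y axis, log2 units). Filled points are dDAVP arrays, open points vehicle arrays and bars group means. Mitosis genes average -0.11 and hybridisation controls -0.15.

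The arrays were alike in other measures. Array medians lay within 0.043 log2 units, correlations between arrays were 0.996 to 0.998, and the excess of 3' over 5' signal of beta-actin, a sign of RNA integrity, was 0.69 ± 0.021 log2 units in dDAVP arrays and 0.70 ± 0.017 in vehicle arrays (SD, n = 3 each). Of the principal cell markers, 8 of 9 were measured, and Aqp2, Avpr2 and Fxyd4 rose. Aqp3 was at 4.99 and Elf5 at 3.74, against 2.47 for the dimmest gene of the table. Other cell types were thinly covered. Fibroblast (2 of 6 measured), endothelial (1 of 4) and leukocyte markers (2 of 5) were at 2.75 to 3.63, and the proximal tubule marker Lrp2 (1 of 4) was at 8.25 ± 0.069 in dDAVP arrays and 8.35 ± 0.10 in vehicle arrays (SD, n = 3 each). The intercalated cell markers Atp6v1b1 and Atp6v0a4 (2 of 5) averaged 6.89 ± 0.15 in dDAVP arrays and 6.52 ± 0.060 in vehicle arrays (SD, n = 3 each) without passing the test, and their part in the result was not tested.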

How the data were processed

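Per the labels' protocols, RNA came from Trizol extraction and was turned into biotin-labelled cRNA. The deposited values are log2 signals for each probe set on each array. Affymetrix Expression Console 1.1, RMA and MAS5 are named in the submitters' processing notes, without a statement of which method made these values. Array medians are nearly equal, so the values were taken as already scaled between arrays, and summarising over probes can understate changes. Of 28287 probe sets, 62 are Affymetrix controls and were not tested. The platform annotation gave 1 gene symbol for 23097 probe sets, several for 611 and none for 4517, and genes were named from the first kind only.

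Groups came from the sample titles. The comparison of dDAVP with vehicle was fitted with limma 3.58.1 (R 4.3.3, lmFit and eBayes, 4 residual degrees of freedom) over 28225 probe sets, with Benjamini-Hochberg adjustment over all of them and a threshold of 0.05. Unadjusted p-values are from the same fit. Lists are described by counts and medians, with no test. The number of arrays limits the precision. The members, the lists and the rule for named genes were chosen with earlier results of these data known. All members are named, with values in all 6 arrays for those with an unadjusted p below 0.05, those with a positive change and the brightest in each role group. Of each other list the 2 genes with the smallest p are named where none passed. The code was tested on simulated data. Promoter sequences are from RefSeq (GRCm38.p6), with entries for 29 of 33 members. Figures were drawn with matplotlib 3.10.9.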

Additional observations from a re-analysis of the deposited data

How the results depend on the processing

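No member passed limma at an adjusted p of 0.05 under any of the 16 alternatives run (0 in each). The members' median, -0.11 as deposited, was 0.039 with arrays scaled to the hybridisation controls and -0.13 with poly-A controls, and negative members numbered 6 with hybridisation controls. Members at an unadjusted p below 0.05, 7 as deposited, numbered 11 with median centring, 0 with hybridisation controls, 3 with poly-A controls, 13 when dimmer probe sets were dropped at the median level, 14 with a trended prior and 11 with probe sets averaged per gene. Leaving out 1 array gave 3 (without vehicle replicate 1) to 7, with 4 without dDAVP replicate 1 or 2, a median of -0.12 to -0.10 and 31 to 33 negative members. Probe sets passing in the whole table, 61 as deposited, numbered 282 with hybridisation controls, 95 without the dimmer probe sets, 146 with a trended prior and 22 to 46 without 1 array. With the replicate number as a block they numbered 24, while 6 members had an unadjusted p below 0.05 and 0 passed. Same-numbered arrays of the 2 groups correlated at 0.21, 0.09 and -0.04 in their deviations from group means, and 3 of 6 arrays correlated best with their own number, so the numbers were not taken to pair the samples. Pttg1 turned negative with median centring (-0.0051) and poly-A controls (-0.017), and without 1 array lay between -0.053 and 0.059. With hybridisation controls Prc1 (0.015), Mad2l1 (0.066), Birc5 (0.088) and Kif23 (0.062) turned positive, against 0.15 for all probe sets. The median correlation between members within groups lay between -0.022 (without dDAVP replicate 2) and 0.17. Apart from the scalings, which shift every probe set of an array alike, and from settings that use fewer probe sets or arrays, the cause of these moves was not tested. Probe sets with suffixes _a_at, _s_at or _x_at can read related transcripts and represented 16 of the 33 members. With such probe sets left out, 28 members could be represented, of which 25 were negative, with a median of -0.091. An unadjusted limma p below 0.05 was then reached by 5, and Top2a was at -0.14 (limma unadjusted p = 0.179).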
